A study of Zea mays with 9 samples.

Results

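HRGP, expB3 and CesA-4 are 3 maize genes of the plant cell wall: a hydroxyproline-rich glycoprotein, a beta expansin and a cellulose synthase catalytic subunit. Their probe sets were found by gene symbol or synonym, which gave 5 probe sets (2 for HRGP, 1 for expB3 and 2 for CesA-4) of the 17621 probe sets on the array that are not controls, and 3 of the 1108 genes that the platform annotation names singly. Endosperm, the storage tissue of the kernel, was taken 15 days after pollination from 3 field-grown inbred lines, ae wx, sh1 and B73, with 3 biological replicates of each, and its RNA was read on 1 Affymetrix array per replicate. The ae wx line is named for amylose extender, a starch branching enzyme locus, and for waxy, the granule-bound starch synthase locus. The sh1 line is named for shrunken1, the sucrose synthase locus of the endosperm. B73 is the inbred behind the maize reference genome. The labels give no B73 background for the other lines, so a named mutation and the rest of a line's genome cannot be told apart. The genes were chosen by their signals in these lines, which were already known, so those signals are a description and carry no test.

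A growing plant cell is held by a wall of cellulose fibres in a matrix of other polysaccharides and proteins. Cellulose synthases spin the fibres at the plasma membrane along tracks set by microtubules. Expansins loosen the wall so that it can extend, and beta expansins act on the arabinoxylan-rich walls of grasses. Extensin-type glycoproteins such as HRGP are secreted and cross-linked into the wall, and in maize HRGP is known for its expression in young, dividing tissues. Sucrose synthase yields UDP-glucose, the sugar nucleotide from which cellulose is made.

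All signals are the deposited intensities on a linear scale. A probe set was called above controls on an array where its signal exceeded the mean plus 2 SD of 23 control probe sets with no maize target, which put that level between 100.4 and 141.5 on the 9 arrays. Differences between lines are on the scale log2(signal + 16), which understates the change of dim probe sets. Where a line was above controls on no array, a fold is given only as a lower bound against the control level. The waxy gene wx1 averaged 4738 ± 812 in ae wx, 10332 ± 383 in sh1 and 14314 ± 700.1 in B73, and the shrunken1 gene sh1 averaged 15986 ± 141 in ae wx, 1832 ± 139.6 in sh1 and 17471 ± 624 in B73 (SD, n = 3 each). The ae1 signal was 11862 ± 194 in ae wx, 9914 ± 391 in sh1 and 9794 ± 740.2 in B73 (SD, n = 3 each), so it was not lower in the line named for it. Starchy endosperm markers came from a list of zeins, starch synthesis genes (wx1 among them) and the transcription factor genes o2 and pbf1. All 14 of these markers on the array were above controls on every array. Against B73, 4 of them rose and 7 fell in ae wx by limma at an adjusted p under 0.05, where 29% and 24.3% of all probe sets tested rose and fell. In sh1, 1 rose and 5 fell, where 30.4% and 25.4% of all tested did. Ratios of 3′ to 5′ control signal, a measure of RNA integrity, differed from B73 on the log2 scale by -0.34 (cyclophilin) to 0.40 (actin) in ae wx and by -0.39 (cyclophilin) to 0.58 (GAPDH) in sh1, and their part in the results was not tested.

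The 3 genes differed in which line was high. HRGP stood far above controls in B73 and was above controls on no array of the other lines. The expB3 signal was highest in B73, intermediate in ae wx and lowest in sh1. CesA-4 was highest in sh1, slightly lower in B73 and not above controls in ae wx. Against B73, 5 of the 5 probe sets had every ae wx array below every B73 array, a pattern that 27.5% of the 12414 probe sets tested share. For sh1 against B73, 3 probe sets (HRGP and expB3) lay entirely below, against 28.3% of all tested, and 2 (CesA-4) lay entirely above, against 32.6%. With ae wx set against sh1, 2 probe sets lay entirely above (31.1% of all tested), 2 entirely below (31.5%) and 1 overlapped. All 5 passed the filter on dim probe sets only through lines where they were high. For HRGP these were the B73 arrays alone, for expB3 B73 and ae wx arrays, and for CesA-4 sh1 and B73 arrays. The counts thus describe the genes and say nothing about how unusual they are.

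**Figure D1:**
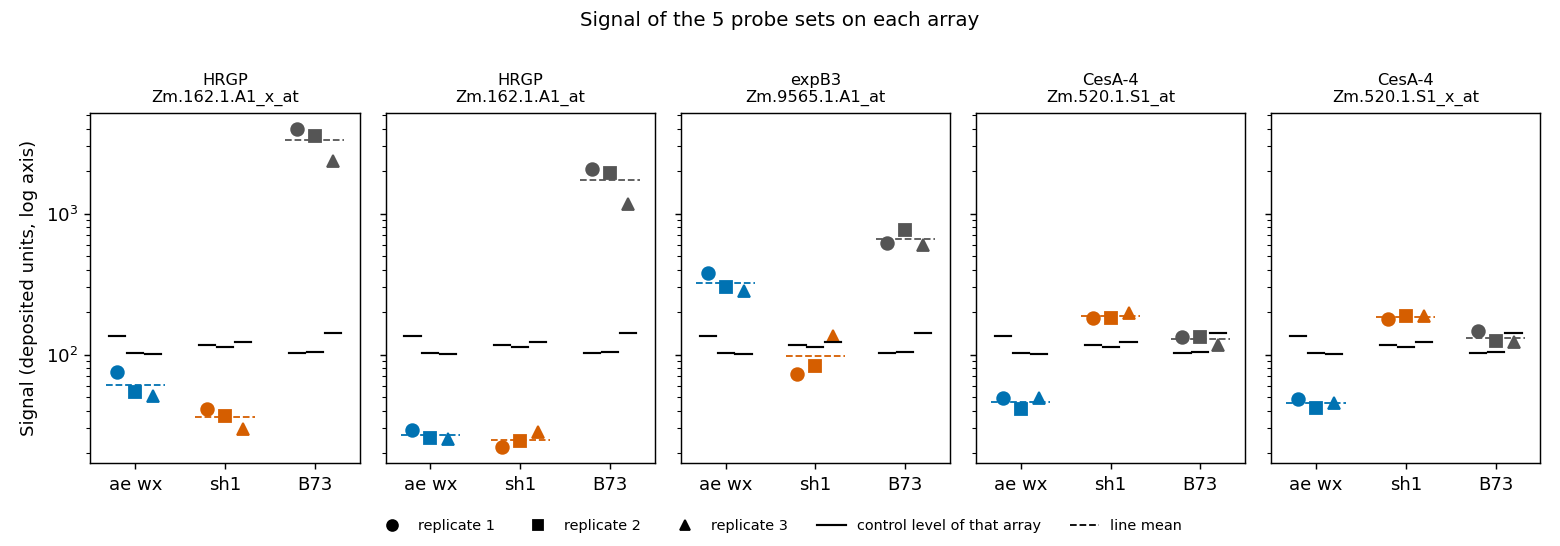
Signal on each array (log axis, deposited units) of the 5 probe sets in ae wx, sh1 and B73. Points are arrays, dashed lines are line means and black bars are the control level of each array. HRGP lay between 1169.7 and 3996 in B73 and under the control level on all ae wx and sh1 arrays, whereas CesA-4 lay under it on all ae wx arrays and above it on all sh1 arrays.

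HRGP, the structural wall protein, had the widest gap between lines. Its brighter probe set, of the x type, read 75.6, 54.4 and 51.1 in ae wx. The same probe set read 41.3, 36.7 and 29.8 in sh1. In B73 it read 3996, 3568 and 2341. No ae wx or sh1 array was above controls, all 3 B73 arrays were, and the lowest B73 array was far above the highest array of either other line. The means were 60.4 ± 13.3 in ae wx, 35.9 ± 5.76 in sh1 and 3302 ± 859 in B73 (SD, n = 3 each). HRGP was thus lower by at least 25.2-fold in ae wx than in B73 and lower by at least 24.3-fold in sh1 than in B73. The fitted differences were -5.42 ± 0.20 and -5.97 ± 0.20 (log2, SE). Between ae wx and sh1 the difference was 0.55 ± 0.20 (log2, SE), with every ae wx array above every sh1 array, but both lines were at the level of the controls and no fold is given.

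The second HRGP probe set gave the same order of B73 against the rest. Its signals were 29.1, 25.7 and 25.3 in ae wx, 22.1, 24.6 and 28.1 in sh1, and 2069.5, 1949 and 1169.7 in B73. Its ae wx and sh1 arrays overlapped, with a difference of 0.06 ± 0.18 (log2, SE), so the small gap between these lines on the brighter probe set was not seen on it. The bounds were at least 13.2-fold lower in ae wx than in B73 and at least 12.7-fold lower in sh1 than in B73. The x type marks probe sets with probes that may also bind other sequences. RefSeq gives the synonym HRGP to 2 genes, and both probe sets belong to 1 of them.

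The B73 arrays were not alike for HRGP. Replicate 3 had the lowest signal on both probe sets. Embryo and aleurone markers, which stand for kernel parts other than starchy endosperm, were as a sum also lowest in replicate 3 within B73. Their signal summed over the 9 listed genes was 8174 to 8865 in ae wx, 11029 to 12140 in sh1, and 26112, 28729.7 and 13017 in B73 replicates 1, 2 and 3. Unlike HRGP, the sum in B73 replicate 3 lay close to the highest sh1 array. Against B73, 5 of the 7 markers that passed the filter fell in ae wx and 3 fell in sh1, by limma at an adjusted p under 0.05, where 24.3% and 25.4% of all probe sets tested fell. The embryo globulin gene glb1 read 457, 416 and 465 in ae wx, 758, 341 and 356 in sh1, and 3183, 3111 and 1745 in B73. The tonoplast channel gene tip3a read 195, 163 and 175 in ae wx, 953, 1350.4 and 1347 in sh1, and 11622, 12089 and 2378 in B73. It thus made up a large part of the summed signal in B73 replicates 1 and 2 and a small part in ae wx. Other genes of the list held most of the summed signal in ae wx and sh1. Neither the sum nor the falls of glb1 and tip3a stand for every gene of the list. The markers glb2 and EMB5 did not pass the filter. The part of embryo or aleurone tissue in the HRGP difference was not tested, and fewer cells of a type and less RNA per cell cannot be told apart in bulk tissue. Without B73 replicate 3 the HRGP differences were -5.65 in ae wx and -6.20 in sh1 (log2).

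Markers of other kernel parts were read in the same way. The summed signal of 8 listed green tissue genes was 1069 to 1195 in ae wx, 1105 to 1193 in sh1 and 1142 to 1792 in B73, with B73 replicates 1 and 2 the highest arrays. Of the 4 that passed the filter, 1 rose and 2 fell in ae wx against B73, where 29% and 24.3% of all probe sets tested rose and fell. In sh1 against B73, 1 of these 4 rose and 1 fell, where 30.4% and 25.4% of all tested did. Transfer cell genes, of the cells that take up nutrients at the base of the kernel, ran the other way: of 5 listed, the 4 that passed the filter rose in both lines against B73, where 29% of all probe sets tested rose in ae wx and 30.4% in sh1. The sums over the 5 genes were 4445, 1512 and 1474 in ae wx, with replicate 1 the highest, 1948 to 3832 in sh1 and 729 to 788 in B73. Of the 5 genes, 2, 2 and 1 were above controls in B73 replicates 1, 2 and 3, and 4 on each sh1 array. Some of the 4 thus needed ae wx or sh1 arrays, where they were high, to pass the filter. The count of rises was therefore partly fixed by the filter. Of 4 embryo-surrounding region genes 1 was measured, which rose in ae wx and did not pass the test in sh1. The part of these tissues in the values of the 3 genes was not tested.

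**Figure D2:**
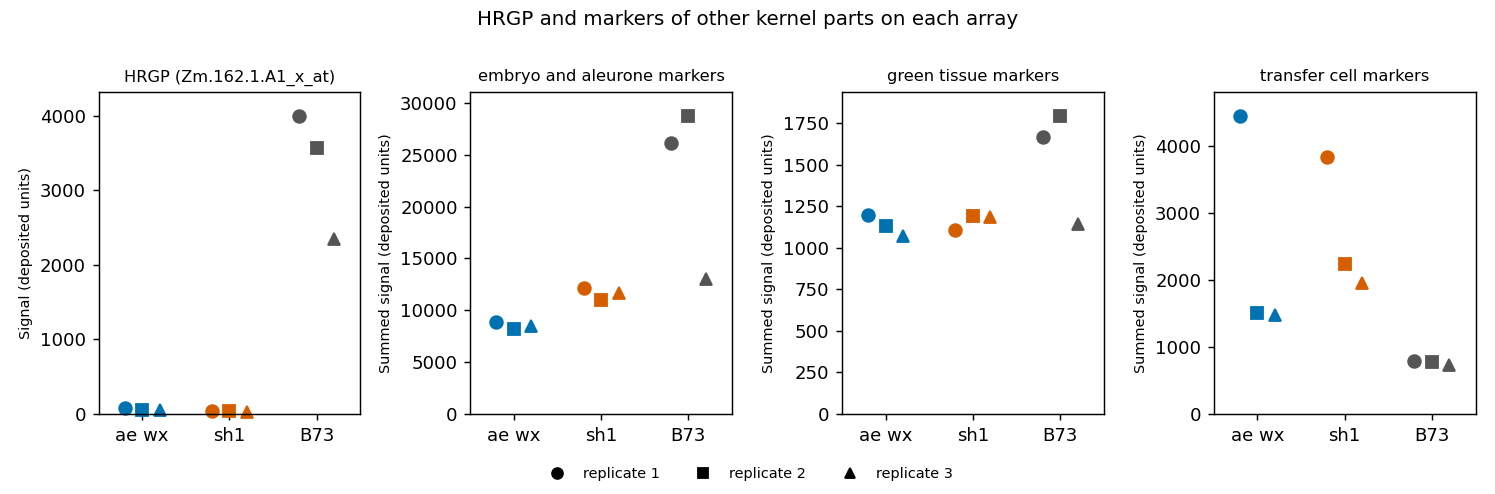
Signal of HRGP and summed signal of the markers of embryo and aleurone, green tissue and transfer cells on each array, in deposited units from 0, for ae wx, sh1 and B73. B73 replicate 3 (triangle) lay below the other B73 arrays for HRGP (2341), for embryo and aleurone markers (13017) and for green tissue markers (1142).

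The beta expansin expB3, read by 1 probe set, separated all 3 lines. Its signal was 378, 301 and 284 in ae wx. In sh1 it was 72.2, 83.4 and 136. In B73 it was 615, 767 and 603. No line overlapped another, so the order was B73, then ae wx, then sh1. The sh1 signals were near the controls, and only replicate 3 was above them. The means were 321 ± 49.9 in ae wx, 97.2 ± 34.1 in sh1 and 662 ± 91.3 in B73 (SD, n = 3 each). Relative to B73, expB3 was 2.01-fold lower in ae wx (log2 difference -1.01 ± 0.20, SE) and 6.12-fold lower in sh1 (-2.61 ± 0.20). It was 3.04-fold higher in ae wx than in sh1 (1.60 ± 0.20). Both sizes that involve sh1 are rough, since 2 of its 3 arrays were not above controls: with another pseudocount the difference from B73 ran between -2.80 and -2.18 (log2).

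CesA-4, one of the cellulose synthase catalytic subunits, was dim everywhere. Its first probe set read 49.0, 40.8 and 48.9 in ae wx. It read 181, 182 and 197 in sh1, all above controls. In B73 it read 133.9, 133.7 and 116, of which the first 2 were above controls. The 3 lines did not overlap, and the order was sh1, B73, ae wx. The means were 46.2 ± 4.67 in ae wx, 187 ± 8.72 in sh1 and 128 ± 10.04 in B73 (SD, n = 3 each). CesA-4 was lower by at least 1.12-fold in ae wx than in B73, with a fitted difference of -1.21 ± 0.09 (log2, SE). It was 1.41-fold higher in sh1 than in B73 (0.49 ± 0.09). Between the other lines it was lower by at least 1.58-fold in ae wx than in sh1 (-1.70 ± 0.09).

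The second CesA-4 probe set, of the x type, had the same order of lines without overlap. The signal was 48.4, 41.9 and 45.3 in ae wx, 178, 189 and 186 in sh1, and 147, 126 and 122 in B73. Its log2 differences were -1.27 in ae wx and 0.45 in sh1, both against B73, and -1.71 in ae wx against sh1. These are close to the differences of the first probe set, but probes of the x type may also bind relatives of the gene.

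The genes of the same wall processes were set beside these values. The list held 51 other genes on the array, of which 42 passed the filter. It holds no structural wall protein other than HRGP, since symbols that may stand for proline-rich, glycine-rich or arabinogalactan proteins were left out by hand as of unsure function. In ae wx against B73, 8 of the 42 rose and 8 fell (limma, adjusted p under 0.05), against 29% and 24.3% of all 12414 probe sets tested. With quantile normalization the split was 5 higher and 8 lower. In sh1 against B73, 14 rose and 11 fell, against 30.4% and 25.4% of all tested, and with quantile normalization the split turned to 12 higher and 14 lower. In ae wx against sh1, 8 rose and 15 fell, against 17.8% and 18.8%. The median log2 difference of the 42 genes was 0.04, 0.06 and -0.10 in these comparisons, beside 0.04, 0.04 and 0.004 over all probe sets. Of these calls, 11 of 16, 18 of 25 and 16 of 23 held without each array in turn, and the genes named next as risen or fallen are among them unless said otherwise.

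Among 11 other glucan synthesis genes, 1 was called in ae wx against B73, where 29% of all probe sets tested rose and 24.3% fell. The called gene was Bk2L6, a COBRA-like protein gene of the brittle stalk family, which fell 1.38-fold (adjusted p = 0.0308 by limma). This call ended without any 1 of 5 of the arrays. In sh1 against B73, 3 rose and 3 fell, near the 30.4% and 25.4% of all probe sets tested that did. CesA-1 rose 1.67-fold (0.74 ± 0.11 log2, SE; limma adjusted p = 0.00033) and CesA-2 rose 1.78-fold (0.83 ± 0.12), while Bk2L6 fell 2.42-fold (-1.28 ± 0.16). CesA-1 averaged 493 ± 38.4 in ae wx, 762 ± 19.8 in sh1 and 453 ± 60.9 in B73, and CesA-2 averaged 357 ± 25.1 in ae wx, 544 ± 44.1 in sh1 and 301 ± 47.8 in B73 (SD, n = 3 each). CesA-1 and CesA-2, like CesA-4, were highest in sh1, but in ae wx they did not pass the test against B73 (0.12 and 0.24 log2). CesA-7 also rose in sh1 against B73, by 1.24-fold, while the brighter CesA-3 and CesA-5 fell there, by 1.39-fold and 1.30-fold. The calls of CesA-7, CesA-3 and CesA-5 ended without any 1 of 8, 4 and 8 of the arrays. CesA-5 arrays overlapped between the lines. The called cellulose synthases thus went both ways in sh1. Between ae wx and sh1, CesA-1 fell 1.53-fold and CesA-2 by 0.59 on the log2 scale in ae wx, and Bk2L6 rose 1.75-fold. The genes cesa10, CesA12 and bk2, which serve secondary walls, did not pass the filter. The gene cesa11 did pass it and was above controls on every array. Its means were 235 ± 21.7 in ae wx, 226 ± 11.9 in sh1 and 209 ± 5.97 in B73 (SD, n = 3 each), and it was called in no comparison.

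Of 9 other expansins, none was called in ae wx against B73 on its brightest probe set, and none had an unadjusted p under 0.05 there by limma. Of all probe sets tested, 29% rose and 24.3% fell in that comparison. The brightest expansins, expB8 and expA4, differed by 0.00 and -0.17 (log2) in ae wx. The other kept probe set of expB8 was higher in ae wx by 0.37 (log2, limma adjusted p = 0.026), so that gene gave a call on 1 of its probe sets. In sh1 against B73, 2 expansins rose and 3 fell, where 30.4% and 25.4% of all probe sets tested did. The alpha expansin expA4 rose 3.33-fold, with means of 222 ± 20.4 in ae wx, 880.4 ± 136 in sh1 and 255 ± 59.5 in B73 (SD, n = 3 each). Its other probe sets differed by 0.27 and 2.22 (log2), so the size of that rise depends on the probe set. The beta expansin expB8 rose 1.37-fold, a call that ended with array weights (its other kept probe set differed by 1.26 log2), and expB7, another beta expansin, fell 1.39-fold. The alpha expansin expa2 fell 1.27-fold in sh1. In ae wx against sh1, 2 expansins rose, among them expB7 by 1.64-fold, and 2 fell, among them expA4 by 3.74-fold. Of all probe sets tested, 17.8% rose and 18.8% fell there. The sh1 line thus held expansins that differed in both directions while expB3 was at its lowest there.

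Of 4 wall-modifying enzymes, none was called in ae wx against B73, and none had an unadjusted p under 0.05 by limma. Of all probe sets tested, 29% rose and 24.3% fell in that comparison. In sh1 against B73, 2 of the 4 fell and none rose, where 25.4% and 30.4% of all tested did. The xyloglucan endotransglucosylase gene xet1, whose product cuts and rejoins xyloglucan, fell 2.28-fold (-1.19 ± 0.20 log2, SE; limma adjusted p = 0.00078). Its means were 524 ± 56.1 in ae wx, 199 ± 69.6 in sh1 and 460.4 ± 65.3 in B73 (SD, n = 3 each). Between ae wx and sh1, 3 of the 4 rose in ae wx, with xet1 at 2.59-fold and the cell wall invertase gene incw1 at 1.41-fold, where 17.8% of all probe sets tested rose. The cell wall invertase gene mn1, which splits arriving sucrose at the base of the kernel, differed by -0.03 (log2) in ae wx from B73.

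The sugar nucleotide genes were RGP, a reversibly glycosylated protein that forms UDP-arabinofuranose, and UGlcAE, a UDP-glucuronate epimerase. RGP averaged 3280 ± 84.8 in ae wx, 5536 ± 286 in sh1 and 2687 ± 388 in B73 (SD, n = 3 each). It rose 2.07-fold in sh1 against B73 and fell 1.68-fold in ae wx against sh1. In ae wx against B73 it rose 1.23-fold (limma adjusted p = 0.0315), a call that ended without any 1 of 6 of the arrays. UGlcAE fell 1.31-fold in ae wx and 1.30-fold in sh1 against B73. The first of these calls ended without ae wx replicate 2 (-0.31 log2) and the second without sh1 replicate 2 (-0.32 log2), and its second probe set differed in sh1 by 0.24 (log2).

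Of 4 phenylpropanoid and lignin genes, 2 rose and 1 fell in ae wx, and 2 rose and 2 fell in sh1, against B73. Of all probe sets tested, 29% rose and 24.3% fell in ae wx, and 30.4% and 25.4% in sh1. The cinnamoyl-CoA reductase gene cncr1 rose in both lines against B73, 3.51-fold in ae wx and 3.05-fold in sh1. Its means were 1193 ± 77.7 in ae wx, 1038 ± 84.5 in sh1 and 331 ± 52.4 in B73 (SD, n = 3 each). The cinnamyl alcohol dehydrogenase gene CAD2, of a later step toward lignin, fell 1.85-fold in ae wx (-0.89 log2) and by 0.58 on the log2 scale in sh1, where its arrays overlapped those of B73. The 4CL gene, for 4-coumarate:CoA ligase, rose by at least 1.16-fold in ae wx and at least 1.56-fold in sh1, since B73 was above controls on no array. It passed the filter only through ae wx and sh1 arrays, where it was high, so its rise was partly fixed by the filter. PAL1, for the entry enzyme phenylalanine ammonia-lyase, fell 1.63-fold in sh1 against B73 and rose 1.55-fold in ae wx against sh1.

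All 12 tubulins on the array, subunits of the microtubules that guide cellulose synthase, passed the filter. In ae wx against B73, 5 rose and 5 fell, where 29% and 24.3% of all probe sets tested did. In sh1 against B73, 6 rose and none fell (none had a lower level at an unadjusted p under 0.05 by limma), where 30.4% and 25.4% of all tested did. Between ae wx and sh1, 1 rose and 9 fell in ae wx, where 17.8% and 18.8% of all tested did. The beta tubulin TUB2 averaged 203 ± 19.1 in ae wx, 428 ± 36.0 in sh1 and 103 ± 20.7 in B73, where no array was above controls (SD, n = 3 each). It rose by at least 1.67-fold in ae wx and at least 3.39-fold in sh1. TUB2 passed the filter only through ae wx and sh1 arrays, where it was high, so its rise was partly fixed by the filter. The alpha tubulin TUA1 fell 1.84-fold in ae wx against B73 and 1.65-fold in ae wx against sh1. In sh1 against B73 it was not called (-0.16 log2), though every sh1 array lay below every B73 array. That pattern was shared by 28.3% of all probe sets tested. The gamma tubulin TUBG2 rose by at least 1.36-fold in ae wx against B73. The beta tubulin tub3 was highest in sh1 and lowest in ae wx, the order of CesA-4: it fell 1.59-fold in ae wx against B73 and 2.04-fold in ae wx against sh1. The beta tubulin tub6 rose 1.28-fold in ae wx and 1.96-fold in sh1 on its brightest probe set, but its other 3 probe sets were all lower in ae wx, by -0.30, -2.34 and -0.31, and differed by 0.32, -1.91 and 0.17 in sh1 (log2), so its direction rests on the probe set.

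**Figure D3:**
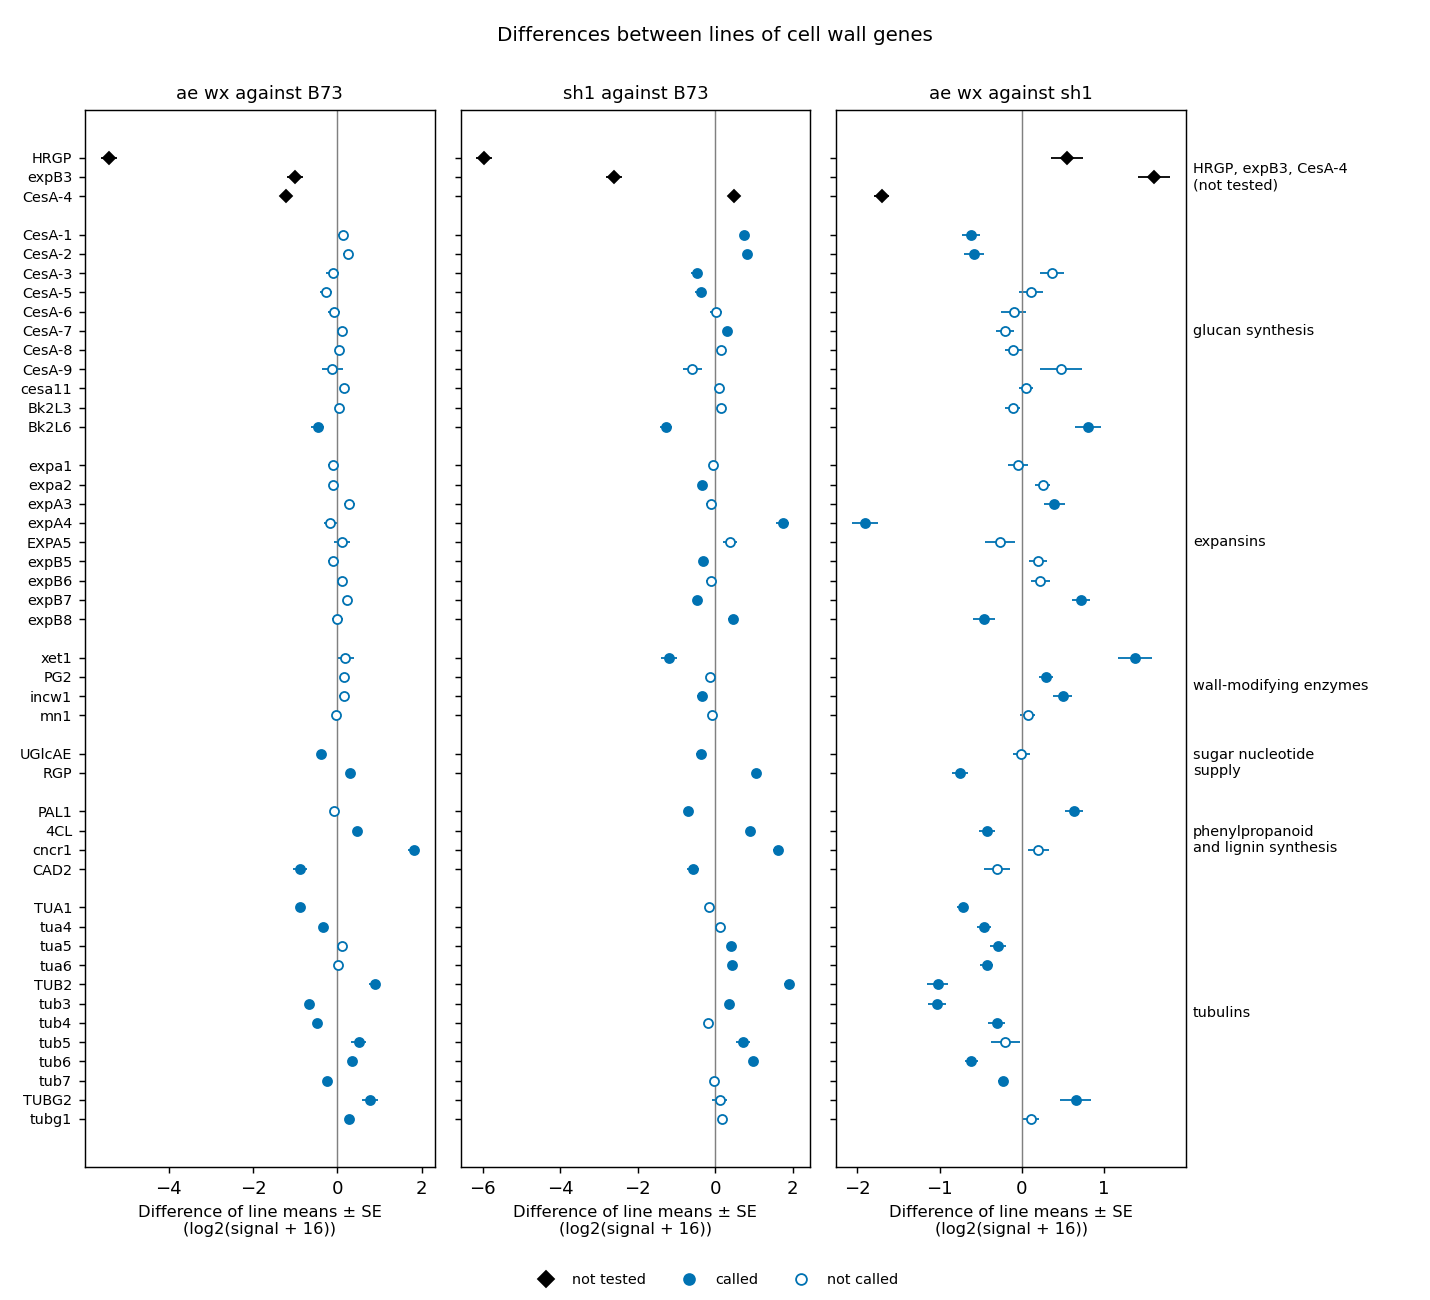
Difference of line means ± SE on the scale log2(signal + 16) for HRGP, expB3 and CesA-4 (diamonds, not tested) and 42 other cell wall genes in 6 groups, for each mutant line against B73 and for ae wx against sh1. Filled circles passed an adjusted p under 0.05 by limma, and the axes differ between panels. HRGP lies at -5.42 and -5.97 against B73, while on the brightest probe set no expansin of the list is called in ae wx against B73 and 5 are in sh1.

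The named genes with the most similar pattern were ranked by the root mean square (RMS) difference of log2(signal + 16) over the 9 arrays, each gene centred on its own mean, among 743 genes. This is a description, since the arrays form 3 lines and any gene that is high in the same line comes near. For HRGP, whose own RMS deviation was 2.70, the nearest genes were hmt4, a homocysteine methyltransferase (0.91), the sucrose synthase gene sus2 (1.39), ache1, an acetylcholinesterase (1.43), yuc, named for the auxin-synthesis enzyme YUCCA (1.51), and glb1 (1.55). All were highest in B73. For hmt4 the mean signal was 33.6 in ae wx, 53.4 in sh1 and 1010.1 in B73. For ache1 it was 85.8 in ae wx and 56.2 in sh1. Like HRGP, both genes had means under the control levels in these 2 lines, so likeness there is between signals at the level of the controls.

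For expB3, with an RMS deviation of 1.10, the nearest were acco20 (0.26), ICL (0.37), GTPase (0.42), pep4 (0.49) and stv3 (0.49). The acco20 gene, of the ACC oxidase family that makes ethylene, averaged 324 in ae wx, 84.3 in sh1 and 608 in B73. Its order of lines was that of expB3. In sh1 the means of acco20 and ICL (83.0) lay under the control levels, so likeness there is between signals near the controls. For CesA-4, with an RMS deviation of 0.72, the nearest were the tonoplast channel gene TIP4-4 (0.24), nrx1 (0.25), the protein disulfide isomerase gene pdi8 (0.26), derlin1 (0.28), whose product acts in protein quality control of the endoplasmic reticulum, and tub3 (0.30). TIP4-4 averaged 221 in ae wx, 961 in sh1 and 517 in B73, the order of CesA-4.

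**Figure D4:**
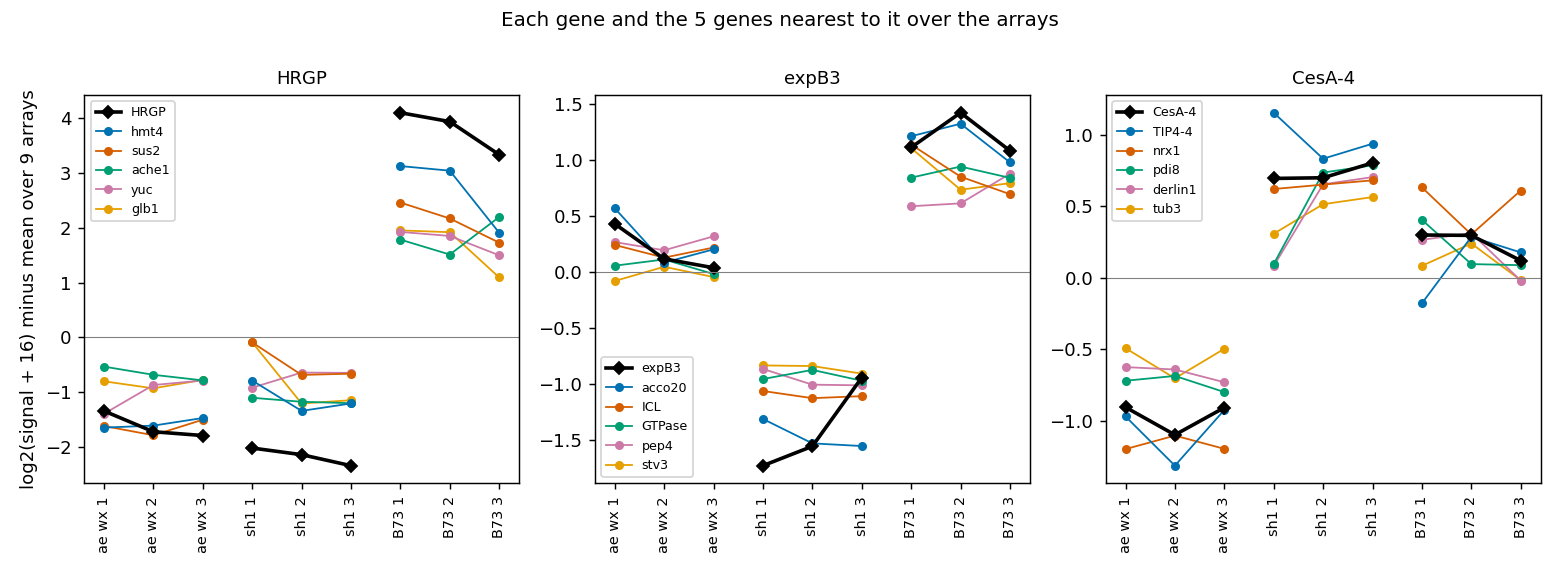
Level on each array, as log2(signal + 16) minus the mean over the 9 arrays, of HRGP, expB3 and CesA-4 (black) and of the 5 named genes nearest to each, with the arrays of ae wx, sh1 and B73 from left to right. The nearest genes of expB3 (RMS difference 0.26 to 0.49) and CesA-4 (0.24 to 0.30) run close to them, whereas those of HRGP (0.91 to 1.55) lie farther from it.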

How the data were processed

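Total RNA of 9 endosperm samples was hybridised to 9 arrays, 3 per line. The values deposited by the authors are linear intensities, 1 for each probe set on each array. GCOS 1.4 stands in the submitters' processing notes. How probes were summarised and scaled is not given in the sources used.

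The values were used as deposited. Of 17734 probe sets, 113 controls were set aside, and 12414 of the rest were kept because their signal reached 20% of the array's 2% trimmed mean on at least 3 arrays. log2(signal + 16) was computed from the deposited intensities and fitted with limma 3.58.1 (R 4.3.3), with a line term over the 9 arrays and trended eBayes. Calls used a Benjamini-Hochberg adjusted p under 0.05 over all kept probe sets. The fit was tested on simulated data. Calls measure the spread between these replicates, and the number of arrays limits their precision.

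A gene was represented by its brightest kept probe set. Names came from the platform annotation and, by Entrez identifier (1377 of 1453 probe sets matched), RefSeq symbols and synonyms. These hold no descriptions, so list members were matched by symbols known to stand for the listed words; the grp1, GRP, GRP5, agp, AGP2, prcw1 and several enzyme symbols, of other or unsure function, were left out by hand. Named wall genes were up to 4 called genes per group and comparison whose arrays did not overlap, largest difference first, or the 2 brightest where none was called. CAD2, CesA-5 and CesA-7 in sh1, tub6 in ae wx, and cesa10, cesa11, CesA12 and bk2 fall outside this rule. They were named, and some genes the rule takes were omitted, after their values were seen. For HRGP, expB3 and CesA-4 the 5 nearest genes were named. The members and lists were chosen with earlier results of these data known. Figures used matplotlib.

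Alternatives were other pseudocounts, filters, normalizations, weights, line subsets and blocks, and each array left out. Same-numbered arrays of different lines did not deviate together (correlations of deviations from line means -0.23 to 0.14), so replicate numbers were not used as pairs. No sequences or coordinates are given.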

Additional observations from a re-analysis of the deposited data

How the results depend on the processing

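The log2 differences of HRGP, expB3 and CesA-4 kept their direction in all 3 comparisons under the 15 alternatives run on them. With log2(signal + 64), HRGP differed by -4.73 in ae wx against B73, -5.04 in sh1 against B73 and 0.31 in ae wx against sh1; expB3 by -2.18 in sh1 against B73 and 1.27 in ae wx against sh1; and CesA-4 by -0.80, 0.39 and -1.19 in these comparisons. With log2(signal + 1), HRGP differed by -6.46 in sh1 against B73, and CesA-4 by -1.45 in ae wx against B73 and -1.99 in ae wx against sh1. A larger pseudocount shrinks differences of dim probe sets by construction. Leaving out each array gave -5.65 to -5.26, -6.20 to -5.81 and 0.41 to 0.64 for HRGP, -1.13 to -0.90, -2.85 to -2.45 and 1.44 to 1.84 for expB3, and -1.27 to -1.15, 0.44 to 0.52 and -1.74 to -1.64 for CesA-4.

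Cell wall genes called numbered 16, 25 and 23 in the 3 comparisons, 12 to 19, 19 to 28 and 17 to 26 with an array left out, and 16, 24 and 20 with the replicate block, which rests on shared numbers only. Over all probe sets the replicate block gave 6205, 6476 and 4020 calls, against 6624, 6939 and 4544 without it; leaving out an array gave 5368 to 7273, 5667 to 7587 and 3221 to 5565. Array weights gave 8019 calls in ae wx against sh1, and the cause was not tested. Replicates 2 and 3 of sh1 deviated together (correlation 0.41), and replicate 1 deviated from both (-0.82 and -0.86). Pairs within ae wx and B73 ran from -0.69 to -0.24. Deviations from a line mean are tied to one another, so these correlations are not separate. Averaging sh1 replicates 2 and 3 left 15, 20 and 18 cell wall genes called. Signals near the controls limit HRGP in ae wx and sh1, expB3 in sh1 and CesA-4 in ae wx to bounds or rough values.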
